A study of Mus musculus with 3 samples.

Results

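The genes described here are 10 receptor tyrosine kinase genes: the FGF receptors Fgfr1, Fgfr2 and Fgfr3, the ErbB receptors Egfr, Erbb2, Erbb3 and Erbb4, the insulin-family receptors Igf1r and Insr, and Met, the receptor of hepatocyte growth factor. Their Nkx2.2-bound regions were chosen by gene name: every region whose deposited list of assigned genes holds one of the 10 symbols was taken. This gave 50 of the 37271 regions in the table, at 8 of the 10 genes. No region was assigned to Fgfr3 or Met.

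Nkx2.2, a homeodomain transcription factor, was mapped by chromatin immunoprecipitation and sequencing (ChIP-seq) in 2 states of cultured C57BL/6 mouse cells, with 1 library each. Oligodendrocyte progenitor cells (OPCs) were isolated from postnatal day 7 cortex with an antibody to PDGFRA and grown without serum but with the growth factors PDGF-AA (10 ng/mL), NT-3 (1 ng/mL) and CNTF (10 ng/mL). Oligodendrocytes (OLs) were made from OPCs isolated in the same way. PDGF-AA was taken away and T3, a thyroid hormone, was added for 48 h (40 ng/mL), so the OLs are cells matured in a dish. Both states share the antibody selection, the strain and the age of the source. The labels list 1.5e7 cells per library, do not give the number of animals, and name another library, of input DNA, that is not analysed here. Only DNA occupancy was measured, so the identity of the cells could not be checked against marker expression, and with 1 library per state no difference between the states has a replicate check or a test.

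Receptor tyrosine kinases span the cell membrane. When a growth factor binds, they phosphorylate themselves and adaptor proteins, which pass the signal to the MAP kinase and PI3 kinase pathways. In the oligodendrocyte lineage, FGF receptors carry signals for progenitor division and for later myelin growth, and Fgfr1, Fgfr2 and Fgfr3 are known to be used at different stages. Of the ErbB receptors, Erbb3 and Erbb4 receive neuregulins from axons. The IGF1 receptor supports survival and myelination.

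Nkx2.2 regions at these receptor genes were mostly called in OLs, in about the proportion seen over all regions with an assigned gene. Of the 50 regions, 42 were called in OL (84%, exact Clopper-Pearson 95% interval 70.9 to 92.8%) and 18 in OPC (36%, 22.9 to 50.8%), against 87% and 37.7% of the 26342 regions with an assigned gene. Both libraries had a call at 10 regions (20%, background 24.8%), OL alone at 32 (64%, background 62.3%) and OPC alone at 8 (16%, background 13%). Each background share lay inside the interval of the receptor genes' share, and the intervals cover counting error over regions only. The 50 regions are not independent, since 18 of them lie in Erbb4 and 11 in Igf1r.

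**Figure D1:**
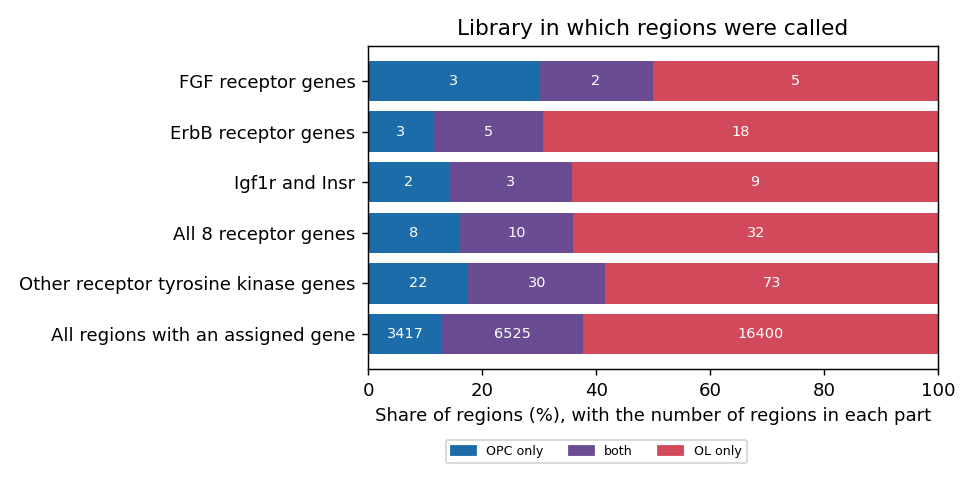
Share of regions called in OPC only (blue), in both libraries (purple) and in OL only (red), for the FGF receptor genes, the ErbB receptor genes, Igf1r with Insr, all 8 receptor genes with a region, the other receptor tyrosine kinase genes and all regions with an assigned gene; the x axis is percent and the numbers are counts of regions. OL-only regions made up 32 of the 50 receptor regions and 16400 of the 26342 regions with an assigned gene.

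The signal at the receptor regions was also similar in size to that elsewhere. Signal is the deposited average over a region in units the authors do not define, and the sequencing depth behind it is unknown. In OPC it ranged from 0 to 15.0 over the 50 regions with a median of 2.56, against a median of 3.07 over all regions with an assigned gene. In OL it ranged from 1 to 15.7 with a median of 5.22, against 5.18.

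Differences are given as log2((OL + 1) / (OPC + 1)), where 1 signal unit is added to each value. The median log2 ratio over the 50 regions was 0.96, and 0.82 over the 32 regions outside Erbb4, against 0.74 over all regions with an assigned gene. A log2 ratio of 1 or more was found at 23 regions (46%, 31.8 to 60.7%), against 36.5% of all regions with an assigned gene, and one of -1 or less at 5 regions (10%, 3.33 to 21.8%), against 5.65%. The authors' scaling between the libraries is not given. With the median of all regions in the table set to 0, a shift of 0.74, the counts became 11 and 9 for the receptor genes and 3211 and 4027 for all regions with an assigned gene. A log2 ratio below about 0.74 is therefore a lower OL share than that of the typical region.

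**Figure D2:**
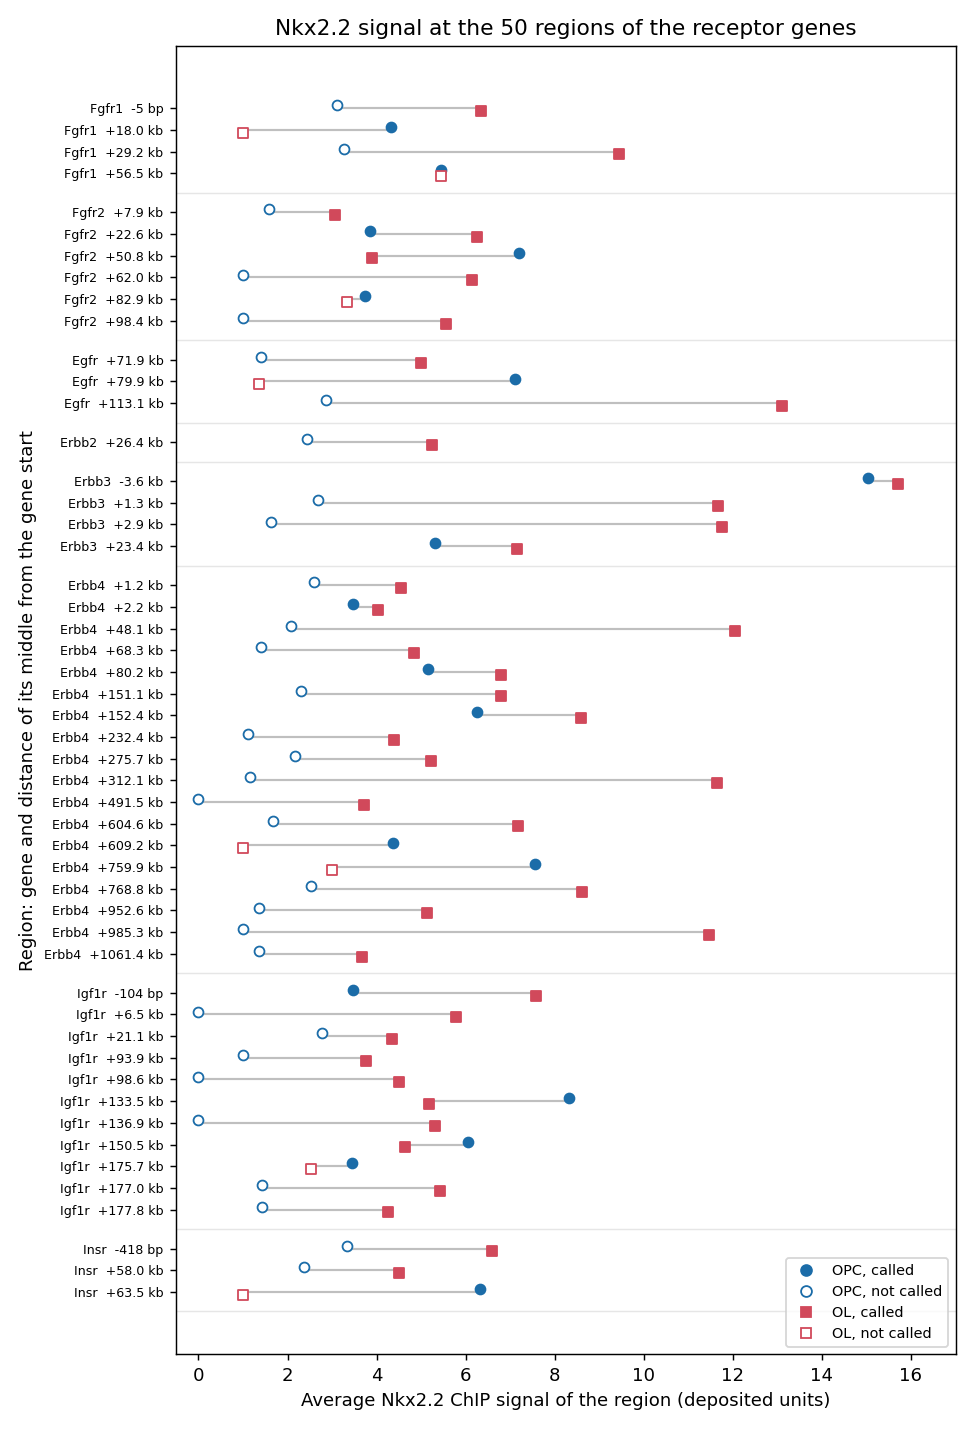
Average Nkx2.2 signal (x axis, deposited units) of each of the 50 regions in OPC (blue circles) and OL (red squares), with filled symbols where the library had a call; rows are regions, labelled by gene and by distance from the gene start. The highest pair of values, 15.0 in OPC and 15.7 in OL, lies 3566 bp upstream of Erbb3.

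Fgfr1, which encodes the FGF receptor found from early progenitors onward, had 4 regions, 2 called in OPC only and 2 in OL only. The region on its start, chr8:26628912-26629566, with its middle 5 bp upstream, had 3.11 in OPC and 6.35 in OL and was called in OL. It carries a CpG island. A region 17961 bp into the gene went the other way, from 4.33 in OPC to 1 in OL, giving a log2 ratio of -1.41. The region 29214 bp into the gene, chr8:26658113-26658803, was the highest of Fgfr1 in OL, with 3.28 in OPC and 9.45 in OL. The fourth, 56549 bp from the start, had 5.44 in both libraries, yet only OPC had a call there. None of these 4 regions was called in both libraries, where the share over all regions with an assigned gene is 24.8%.

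Fgfr2, the gene of the FGF receptor of mature oligodendrocytes, had 6 regions, all inside the gene and none within 1 kb of its start. Its highest region, chr7:137359054-137360016, lay 50787 bp into the gene and had 7.20 in OPC and 3.89 in OL, with calls in both. A second region called in both, 22639 bp into the gene, had 3.86 and 6.25. The regions 61954 and 98383 bp into the gene were called in OL only, with 1 in OPC at each and 6.14 and 5.56 in OL. The region 82858 bp into the gene was called in OPC only with nearly equal values, 3.73 in OPC and 3.33 in OL. Nearest the start, 7901 bp in, the values were 1.58 and 3.06, the lowest OL value of the gene. Over its regions the mean log2 ratio was 0.65 for Fgfr2 and 0.18 for Fgfr1. With all regions centred at 0 these means were -0.08 and -0.56, and with the regions called in both libraries centred at 0, a shift of 0.24, that of Fgfr1 was -0.07.

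Fgfr3, the gene of an FGF receptor of late progenitors, was in no gene list of the table, and neither was any older symbol of it in the RefSeq gene table. Whether the authors' annotation held a start for Fgfr3 is not stated. In the gene order of RefSeq's GRCm38.p6 assembly its nearest protein-coding neighbours are Tacc3 on one side and Letm1 on the other. Tacc3, which encodes a protein of the mitotic spindle, had 5 regions, all called in OL and 4 in OPC, while Letm1 and the next gene, Nsd2, had none. Beyond the last region assigned to Tacc3, the table lists 2 regions without a gene, both called in OL only with 4.64 and 4.20 in OL, and then none for 242866 bp until a region at Whsc2. Of RefSeq's protein-coding genes, 56.6% had a region of their own.

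Egfr, the receptor of EGF and TGF-alpha, had 3 regions, all far inside the gene, and they differed in opposite directions. The region 113138 bp from the start, chr11:16765011-16765677, had 2.86 in OPC and 13.1 in OL, with a log2 ratio of 1.87 and a call in OL only. That OL value was above those of 95.7% of all 37271 regions. The region 79944 bp from the start, chr11:16731836-16732464, had 7.11 in OPC and 1.36 in OL, with a log2 ratio of -1.78 and a call in OPC only. Closer to the gene start, 71903 bp in, lay the remaining one, with 1.4 in OPC and 5 in OL and a call in OL only.

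Erbb2, the ErbB receptor with no known ligand of its own, had 1 region, and it was not at the Erbb2 start. The region, chr11:98299971-98300524, lies 26449 bp from that start and is placed downstream of the gene. It covers the start of 1810046J19Rik, with its middle 55 bp inside that gene, and lies 7901 bp upstream of Grb7, which encodes an adaptor that binds ErbB receptors. It had 2.44 in OPC and 5.24 in OL, with a call in OL only. Its log2 ratio of 0.86 was near the median of all regions with an assigned gene.

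Erbb3, the neuregulin receptor whose kinase is nearly inactive and which signals through its partners, had the strongest region of the 10 genes. This region, chr10:128029714-128030533, lies 3566 bp upstream of the start and had 15.0 in OPC and 15.7 in OL, with calls in both. Those values were above 98.8% of all regions in OPC and 97.5% in OL. By the highest signal within the region the order was the opposite, 54 in OPC and 36 in OL.

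Just inside Erbb3, a pair of regions separated by 804 bp had much more OL signal. The one 1315 bp from the start, chr10:128024896-128025588, had 2.68 in OPC and 11.7 in OL. The one 2874 bp from the start, chr10:128023275-128024092, had 1.63 and 11.8, with a log2 ratio of 2.28. Both were called in OL only. Within a few kilobases the same gene therefore held a region of about equal signal in both states and others with mostly OL signal.

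The fourth region assigned to Erbb3, chr10:128002757-128003608, is placed downstream of it, 23375 bp from its start. Its middle is 192 bp upstream of Pa2g4, which encodes an ErbB3-binding protein, so it is a region at the neighbour's start. It had 5.30 in OPC and 7.15 in OL, with calls in both and a CpG island.

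Erbb4, a neuregulin receptor with a full kinase, had 18 regions, spread from 1205 to 1061434 bp from its start. Only 54 of the 14473 genes in the table, Erbb4 included, had as many. It is a very long gene, and the number of regions was not set against gene length. OL had a call at 16 of the 18 and OPC at 5, with 3 called in both. The mean log2 ratio over the 18 regions was 1.04, and 0.31 with all regions centred at 0.

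The high OL values in Erbb4 came at regions far apart. The region 48150 bp from the start, chr1:69106144-69106823, had 2.08 in OPC and 12.0 in OL. Another, 312116 bp in, had 1.15 and 11.6. One more, 985302 bp in, had 1 and 11.5, with a log2 ratio of 2.64, the largest of Erbb4. At these 3 regions OPC signal was low and only OL had a call. A region 491463 bp in was listed at 0 in OPC and had 3.71 in OL. At 6 more OL-only regions, lying 68320, 151102, 232434, 275706, 952568 and 1061434 bp from the start, OPC values ran from 1.12 to 2.31 and OL values from 3.67 to 6.79.

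Against this, 2 regions of Erbb4 were called in OPC only, and each lay close to a region called in OL only. At 759850 bp, chr1:68394370-68395197, the values were 7.56 in OPC and 3 in OL, while 768778 bp from the start they were 2.53 and 8.62. At 609243 bp, chr1:68545134-68545647, they were 4.38 and 1, while 604620 bp from the start they were 1.67 and 7.17. The regions called in both lay 2211, 80178 and 152355 bp from the start, with log2 ratios from 0.17 to 0.40. Since these regions were sorted by call, their more equal values follow in part from that sorting.

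No region had its middle within 1 kb of the Erbb4 start. The nearest, chr1:69153025-69153831, lay 1205 bp inside the gene, carried a CpG island and had 2.60 in OPC and 4.54 in OL. It is separated by 166 bp from the region at 2211 bp, which had 3.48 and 4.04.

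**Figure D3:**
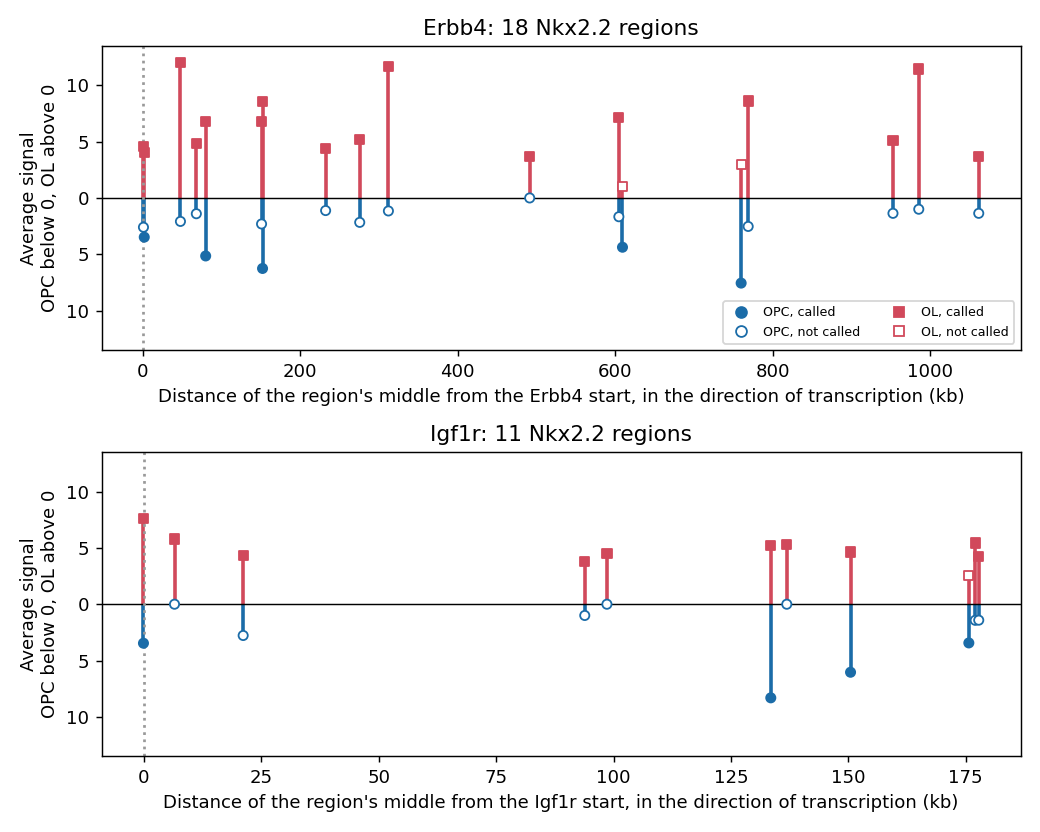
Average signal (y axis, deposited units; OL drawn above 0 and OPC below 0) at each region of Erbb4 and Igf1r against the distance of its middle from the gene start (x axis, kb), with filled symbols where the library had a call. In Erbb4 the highest OL values, 12.0, 11.6 and 11.5, lie 48150, 312116 and 985302 bp from the start; in Igf1r the highest OPC value, 8.31, lies 133497 bp from it.

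The 3 genes whose regions most resembled those of Erbb4 were Atxn10, Bbs9 and Gcap14, among 503 other genes with at least 8 regions. Likeness was the distance over 3 values, the shares of a gene's regions called in OPC and in OL and the mean log2 ratio, so it rests on 2 libraries. In Atxn10, OPC calls fell on 2 of its 8 regions and OL calls on 7, and its mean log2 ratio was 1.05. Bbs9 had 3 of 12 and 11 of 12, with 1.05.

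Igf1r, the receptor of IGF1 and IGF2, had 11 regions, 10 called in OL, 4 in OPC and 3 in both. As many or more were assigned to 230 of the 14473 genes. The region on its start, chr7:75096458-75097620, with its middle 104 bp upstream, had 3.46 in OPC and 7.58 in OL, was called in both and carried a CpG island. That OL value was the highest of Igf1r.

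Inside Igf1r, 3 OL-only regions were listed at 0 in OPC, and 3 other regions had more OPC than OL signal. Those listed at 0 lay 6509, 98599 and 136904 bp from the start and had 5.79, 4.50 and 5.31 in OL. The regions 21132 and 93879 bp in were also called in OL only, with 2.78 and 4.35 at the first and 1 and 3.77 at the second. The highest OPC value was at 133497 bp, chr7:75230078-75231202, with 8.31 in OPC and 5.19 in OL and a call in both. This region and the third of those listed at 0 in OPC are 2646 bp apart. A region 150483 bp in had 6.04 and 4.63, also called in both. A region 175675 bp in was called in OPC only, with 3.44 and 2.54, while those 177036 and 177784 bp in were called in OL only, with 1.43 and 5.43, and 1.42 and 4.25. At its highest region the log2 ratio of Igf1r was -0.59, but over its 11 regions the mean was 1.08, and 0.34 with all regions centred at 0.

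Insr, the insulin receptor gene, had 3 regions. The one at its start, chr8:3279347-3279841, with its middle 418 bp upstream, had 3.33 in OPC and 6.60 in OL, with a call in OL only and a CpG island. A region 58047 bp into the gene, also on a CpG island, had 2.36 and 4.50. The third, 63461 bp in at chr8:3215355-3216076, had 6.32 in OPC but 1 in OL, and its log2 ratio of -1.87 was the lowest of the 50 regions.

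Met, the receptor of hepatocyte growth factor, was in no gene list of the table. Whether the authors' annotation held a start for Met is not stated. RefSeq places Met between Cav1 and Capza2, neither of which had a region. Cav2, the next gene beyond Cav1, had 1 region, with 6.58 in OPC and 2.44 in OL and a call in OPC only. Between this region and the first of St7, which lies beyond Capza2, the table lists 3 regions without a gene. One at chr6:17409482-17409968 had 2.27 in OPC and 9.29 in OL, and another 1104 bp from it had 3.57 and 2. Their position relative to the Met start was not analysed here, since no mm9 annotation was used.

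**Figure D4:**
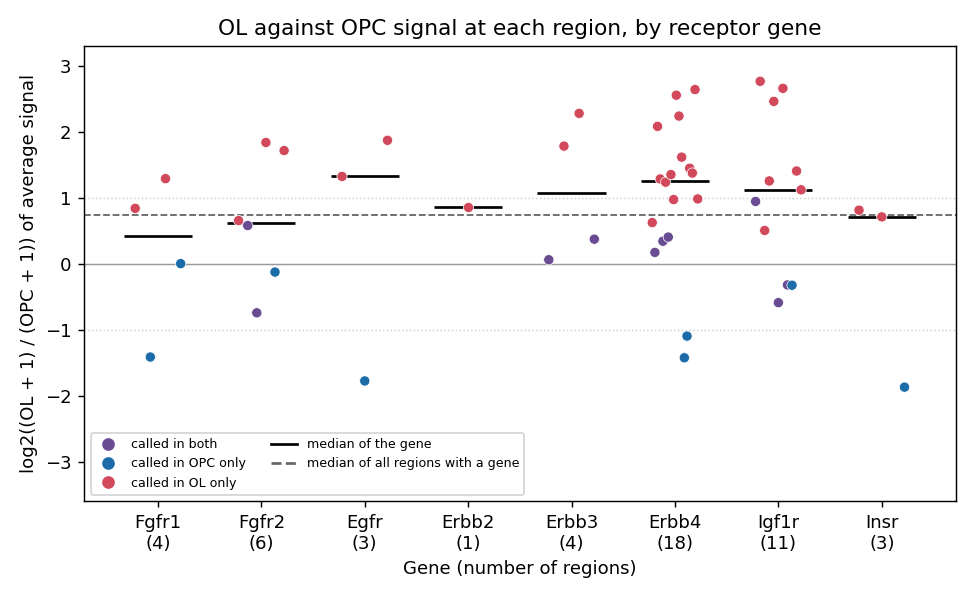
The log2 ratio of OL to OPC average signal, with 1 added to each (y axis), for each region by gene (x axis, with the number of regions), coloured by the library with a call; black bars are medians of the gene and the dashed line is the median of all regions with an assigned gene, 0.74. Fgfr1, Egfr, Erbb4 and Insr each hold regions with a ratio of -1 or less, while the regions of Erbb3 are all above 0 as deposited.

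Of the 8 genes in the table, 3 had a region with its middle within 1 kb of the start, Fgfr1, Igf1r and Insr, against 48.9% of all genes in the table. With a window of 2 kb there were 5. The deposited data also mark regions with an assigned promoter. These were 10 of the 50 regions, 4 of them assigned to Erbb3 and 2 to Erbb4, against 9826 of the 26342 regions with an assigned gene. At each of the 3 starts the OL value was higher than the OPC value. The log2 ratios at the 3 starts were 0.84, 0.94 and 0.81, all near the background median of 0.74, so with all regions centred at 0 they would be close to 0. All 3 regions carry a CpG island. Over the 50 regions 7 carry one (14%, 5.82 to 26.7%), against a background of 24.4%. Most other regions lay deep in the gene bodies: of 44 placed in a gene, 33 were more than 50 kb from the start, a share of 75%, against 41.4% over all such placements in the table. Erbb4 and Igf1r supply most of these. Long genes have more room for distant regions, but gene lengths were not analysed here and their part in this share was not tested.

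Promoter sequence from RefSeq (GRCm38.p6) was available for 7 of the 10 genes. Sequences were searched on both strands for AAGTG, the core that NK2-class homeodomains recognise, and for the longer TNAAGTG and TTAAGTG, both of which contain it. Of 32851 promoter windows, from 250 bases before a start to 50 after it, 46.4% hold AAGTG, 11.5% TNAAGTG and 2.41% TTAAGTG. The 250 bases before the start are shown for Igf1r, whose start carried a region in both states, and for Erbb2 and Erbb4, which had no region with its middle within 1 kb of the start. Capitals mark AAGTG. The windows are chr7:67952007-67952256 (+ strand) for Igf1r, chr11:98412234-98412483 (+ strand) for Erbb2 and chr1:69108060-69108309 (- strand) for Erbb4.
Igf1r: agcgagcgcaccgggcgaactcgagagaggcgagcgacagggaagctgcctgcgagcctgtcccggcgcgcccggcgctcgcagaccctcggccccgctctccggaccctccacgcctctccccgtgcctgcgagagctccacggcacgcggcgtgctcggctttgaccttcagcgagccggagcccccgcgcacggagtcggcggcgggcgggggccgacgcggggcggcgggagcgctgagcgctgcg
Erbb2: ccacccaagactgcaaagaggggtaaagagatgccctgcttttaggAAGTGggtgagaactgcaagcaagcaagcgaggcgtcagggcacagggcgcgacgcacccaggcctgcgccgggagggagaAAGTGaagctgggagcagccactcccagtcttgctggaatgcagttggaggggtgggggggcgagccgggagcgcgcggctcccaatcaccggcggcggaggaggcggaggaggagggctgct
Erbb4: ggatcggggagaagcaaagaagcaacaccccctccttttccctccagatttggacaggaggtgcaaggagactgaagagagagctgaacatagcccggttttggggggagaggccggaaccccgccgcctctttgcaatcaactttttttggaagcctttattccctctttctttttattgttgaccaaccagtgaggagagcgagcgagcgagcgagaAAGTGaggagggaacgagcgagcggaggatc
Igf1r holds no AAGTG in these bases. Erbb2 holds 2, and its window has 3 when the 50 bases after the start are included, and Erbb4 holds 1. The longer forms are in none of the 7 genes' windows, and the windows of Fgfr2, Fgfr3, Egfr and Met hold no AAGTG. A match describes the letters only, and the sequence under the regions themselves was not analysed here, because the regions are given on mm9.

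The list of FGF family genes and coreceptors, which also holds the receptor gene Fgfr4 and the intracellular factors Fgf11, Fgf12, Fgf13 and Fgf14, had a region at 18 of 29 genes, against 56.6% of RefSeq's protein-coding genes, with calls in OL at 17 and in OPC at 8. Of all genes in the table, 94.8% had a call in OL and 57.3% in OPC. Taking each gene's highest region, 7 had a log2 ratio of 1 or more and 1, Fgf1, had -1 or less, against 34.7% and 4.19% of all genes, and the median was 0.59 against 0.73. The strongest was Flrt2, which encodes a membrane protein that binds FGF receptors, with 6.35 in OPC and 12 in OL. Fgf12, which encodes an FGF that stays inside the cell, had 2.50 and 11, and Fgf7 had 7.78 and 9.47 close to its start, 202 bp upstream.

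ErbB ligands and regulators had a region at 13 of 18 genes, all but Nrg2, Btc, Ereg, Areg and Epgn, against 56.6% of RefSeq's protein-coding genes. Calls in OL were found at all 13 and in OPC at 9, against 94.8% and 57.3% of all genes in the table. At the highest region, 8 had a log2 ratio of 1 or more and 0 had -1 or less, against 34.7% and 4.19%. The median was 1.09, against 0.73 over all genes. Nrg3, a neuregulin that binds Erbb4, reached 23.3 in OL, with 10.4 in OPC, 155330 bp into the gene. Lrig2, of a family of membrane regulators of ErbB receptors, had 9.29 and 20.1. Errfi1, which encodes an inhibitor of the ErbB kinases, had 3.95 and 13.3, measured 8569 bp upstream.

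The insulin and HGF family genes had a region at 13 of 16, all but Igf2, Ins1 and Igfbp1, against 56.6% of RefSeq's protein-coding genes. Calls in OL were found at 12 and in OPC at 6, against 94.8% and 57.3% of all genes in the table. The median log2 ratio at the highest region was 0.82, against 0.73 over all genes. It was 1 or more at 5 and -1 or less at 1, against 34.7% and 4.19% of all genes. Mst1r, the receptor gene closest to Met in family, had 5.77 in OPC and 16.3 in OL in a region that lies 1923 bp upstream. Hgf, the Met ligand, had 1 and 7.27 at a region placed downstream of it, and Igf2r, which clears IGF2, had 6.92 and 6.58. The gene at -1 or less was Igfbp2, which encodes an IGF-binding protein, with 6.25 in OPC and 1 in OL and calls in OPC only.

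Of the adaptors that carry the receptors' signal, 24 of 26 had a region, all but Irs4 and Crk, against 56.6% of RefSeq's protein-coding genes, a share not matched for gene length. Calls were found in OL at all 24 and in OPC at 17, against 94.8% and 57.3% of all genes in the table. One of the 24 adaptors is Grb7, whose region is the one described for Erbb2. At the highest region, 12 had a log2 ratio of 1 or more and 0 had -1 or less, against 34.7% and 4.19% of all genes. The median was 0.97, against 0.73. Grb10, which binds the insulin and IGF1 receptors, had 5.59 in OPC and 21.6 in OL. Frs2, the docking protein of FGF receptors, had 7.25 and 19.7. Nck2 had 15.9 and 18, with 3 regions, all called in OL and 1 in OPC.

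Regions were assigned to 33 of 45 other receptor tyrosine kinase genes, against 56.6% of RefSeq's protein-coding genes. Of the 33, 31 had an OL call and 26 an OPC call. The 8 receptor genes with a region all had an OL call, and 7 had an OPC call. Over all genes in the table, 94.8% had an OL call and 57.3% an OPC call, and genes were not matched for number of regions. The median log2 ratio at the highest region was 1.01 for the 33 and 0.83 for the 8, against 0.73 for all genes. The 125 regions of the 33 genes were called in OL at 82.4% (74.6 to 88.6%) and in OPC at 41.6% (32.9 to 50.8%). These intervals overlap those of the 50 receptor regions. The highest were Ryk, an atypical Wnt receptor gene, with 6.41 in OPC and 29.8 in OL, Kdr, a VEGF receptor gene, with 2.43 and 26.1, and Pdgfra, the PDGF receptor gene, with 8.30 and 24.3. At the highest region, 17 of the 33 had a log2 ratio of 1 or more and 3 had -1 or less, against 34.7% and 4.19% of all genes. The 3 were Alk, with 16.4 and 5.40, Epha5 and Kit. The highest region did not stand for all regions of a gene. The mean log2 ratio was -0.03 over the 7 regions of Pdgfra and 0.09 over the 16 of Alk. No receptor of the 10 reached the OL values of Ryk, Kdr and Pdgfra.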

How the data were processed

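Nkx2.2 ChIP-seq of 1 OPC and 1 OL library was analysed from 1 deposited table. The deposited signal columns give the average and the highest signal of each region in each library, per the file headers, and other columns mark in which library the authors had a called interval. Per the submitters' processing notes, BWA, MACS 1.4.2 and build mm9 were used. How intervals were thresholded, whether the input entered the calls, and how libraries were scaled or fragments extended is not given in the sources used here. Depth is unknown. Coordinates are printed as deposited, and whether starts count from 0 is not stated. Exons, introns and gene lengths were not analysed here.

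Regions were matched by exact symbol, and for each the log2 of (OL + 1) / (OPC + 1) was taken from average signals, without a filter on low values. The highest region of a gene is the one with the highest average signal in either library. Calls are peaks per library, so every region has at least 1 call, and OPC-only and OL-only regions differ in signal partly by that choice. Shares carry exact 95% Clopper-Pearson intervals from scipy 1.17.1. No test was run, since each state has 1 library. All regions of the 10 genes were described, 6 of Erbb4 by position and range alone, with the 3 strongest genes of each pathway list; list genes in counts of 5 or fewer were named after their values were seen. The 10 genes and the lists were chosen with earlier results of these data known. Names came from the RefSeq gene table of GRCm38.p6, in which 10043 of the 14473 gene names are current symbols. An older name was matched to a gene only where exactly 1 synonym fit. The 56.6% of protein-coding genes with a region can therefore be too low, and list shares can look high beside it. The computation was tested on simulated data.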

Additional observations from a re-analysis of the deposited data

How the results depend on the processing

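No paired analysis was possible because each state has 1 library, and for the same reason no library could be left out. Of 107 recomputed values, 75 stayed within the tolerance and kept their sign, and 32 did not. The tolerance was 1.5 times for a count and, for a log2 ratio, a difference that stands for a 1.5-fold change of the OL to OPC ratio. No log2 ratio of at least 1 in size changed sign. Keeping only regions of at least the median mean signal left 24 of the 50 regions, 21 OL calls, 10 regions at a log2 ratio of 1 or more and 2 at -1 or less. Stricter calls, at or above the median signal of a library's calls, left 11 in OPC, 21 in OL and 4 in both. A window of 2 kb put 5 genes, not 3, at their start. Pseudocounts of 0.5 and 2, and leaving out regions outside the gene, moved none of these values beyond that tolerance.

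With all regions centred at 0, 11 regions stood at 1 or more and 9 at -1 or less, and the median was 0.22. At the highest region the log2 ratios were then 0.55 for Fgfr1, -1.48 for Fgfr2, 1.13 for Egfr, 0.12 for Erbb2, -0.68 for Erbb3, 1.34 for Erbb4, -1.33 for Igf1r and 0.074 for Insr. The means over a gene's regions were -0.56 for Fgfr1, -0.085 for Fgfr2, -0.27 for Egfr, 0.12 for Erbb2, 0.39 for Erbb3, 0.31 for Erbb4, 0.34 for Igf1r and -0.85 for Insr. This setting subtracts 0.74 from every ratio, so the moves follow from its construction. With the shared regions centred at 0, the mean of Fgfr1 was -0.067 and the highest region of Erbb3 -0.19. By the highest signal in place of the average, the log2 ratios at the highest regions of Egfr, Erbb3 and Igf1r were 2.46, -0.57 and -1.27; the cause was not tested. The unknown depth limits how firmly any low signal can be read.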

Other observations

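A strong pair of regions was assigned to Tacc3 alone. They lie 14991 and 16468 bp from the start of Tacc3, downstream of it. In RefSeq's order of protein-coding genes, Fgfr3 stands between Tacc3 and Letm1. The first, chr5:34015276-34016299, had 18.5 in OPC and 47.9 in OL, and its OL value ranks 13 among the 37271 regions. The second, chr5:34016750-34017778, had 12 and 16.9. Both were called in both libraries. Their distance to the Fgfr3 start was not analysed here, and 3 weaker regions are listed after them, 1 assigned to Tacc3 and 2 to no gene.

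Regions without an assigned gene were also listed upstream of 4 of the receptor genes, within 100 kb of the start that the deposited distances imply. Erbb4 had 2, both called in both libraries: chr1:69170253-69171573 with 6.91 in OPC and 11.6 in OL, and another with 8.57 and 5.56. Fgfr1 had 2, both called in OL only, the nearer at 3.21 and 8.38. Igf1r had 2, with 2.73 and 4.08 at one and 4.50 and 4.80 at the other. Fgfr2 had 1, with 5.65 and 3.65. The search gave none for Egfr, Erbb3 and Insr. It was not made for Erbb2, because the direction of each gene was inferred from the distances of more than 1 region, and Erbb2 had 1. Of the upstream regions in the table that do have a gene, none lies more than 10534 bp from its start, so regions farther upstream of a start are listed without that gene.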
